A study of Mus musculus with 12 samples.

Results

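The collagen genes were examined in the aorta of mice given CM-695 or saline. They were taken as all genes whose symbol in the platform annotation begins with Col, a number, the letter a and a number, measured by a probe set that names no other gene; where a gene had several such probe sets, the brightest over the 12 arrays was used. This gave 44 collagen genes of 22180 named genes, 11 fibrillar, 6 of the basement membrane and 27 of other classes. No gene that codes for another kind of protein was among them.

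The tested mice were 6 female CD-1 mice, an outbred stock, that received CM-695, an inhibitor of histone deacetylase 6 and phosphodiesterase 9, into the peritoneum at 80 mg/kg, 2 h and 1 h before sacrifice. They were set against 6 female CD-1 mice given saline as vehicle, for which the series design records 1 injection, a number that the treatment protocol leaves out. All mice were perfused with buffered saline before the vessel was taken, and their age is not given in the sources used here. Every aorta was hybridised singly, so the spread within a group holds both biological and technical variation, and the values are RMA log2 signals of probe sets.

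Collagens are proteins of the extracellular matrix built from 3 alpha chains wound into a triple helix, each chain made from its own gene. Fibrillar collagens form the tensile fibres of the adventitia and media of an artery, type IV collagens form the sheet of the basement membranes under endothelium and around smooth muscle, and the remaining types decorate fibrils, form microfilaments or short networks, or span the cell membrane. In the aorta, smooth muscle cells and adventitial fibroblasts make most of them. Collagen chains are modified and folded in the endoplasmic reticulum, secreted, trimmed and cross-linked, and the finished fibrils are long-lived.

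The dissected tissue carried markers of several cell types. All 11 smooth muscle and all 11 fibroblast markers (a list with no collagen in it) exceeded the array median on all 12 arrays, and so did 7 of 7 adipocyte and 10 of 11 cardiac muscle markers, against 1 of 9 cartilage and 1 of 5 keratinocyte markers. Markers of 3 cell types had the most negative median differences after CM-695, though none passed the threshold. All 11 fibroblast markers were below 0, with a median difference of -0.30 and 5 at an unadjusted p under 0.05, and 10 of 11 smooth muscle markers were below 0, with a median of -0.27 and 0 at an unadjusted p under 0.05. All 11 cardiac markers were below 0, with a median of -1.67 and 10 at an unadjusted p under 0.05. Their mean per mouse ran from 6.05 to 8.51 after CM-695 and from 7.34 to 9.46 after vehicle. Of all genes, 44.7% were below 0 and 4.14% were lower at an unadjusted p under 0.05. The medians of the endothelial, skeletal muscle, cartilage, macrophage, Schwann cell, mesothelial and keratinocyte markers lay between -0.04 and 0.11. Of these, 3 of 10 endothelial, 3 of 8 skeletal muscle and 1 of 8 macrophage markers had an unadjusted p under 0.05, against 9.1% of all genes. The endothelial and skeletal muscle markers among them had 2 higher and 1 lower in each type, and the macrophage marker was lower. In such tissue, fewer cells of a type and less RNA per cell cannot be told apart. Array medians lay between 4.69 and 4.74, no sample had to be dropped, and no batch is given in the sources used here. The weight for array quality was lowest for CM-695 mouse 2 (0.574) and next lowest for vehicle mouse 1 (0.758). The other arrays had weights of 0.98 to 1.19.

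Most of the collagens with a strong signal had a negative difference, CM-695 minus vehicle, as had all 11 fibroblast markers, while the type V chain gene Col5a3 was higher in every treated mouse than in any vehicle mouse. None of the 44 passed the threshold of the limma test, an adjusted p under 0.05 over all 41345 probe sets, which 0.155% of probe sets and 0.167% of genes passed. At an unadjusted p under 0.05 there were 5 collagen genes, or 11.4%, against 9.1% of all genes. Col3a1, Col12a1 and Col14a1 were lower, as were 4.14% of all genes, and Col5a3 and Col25a1 were higher, as were 4.96% of all genes. With the fibroblast marker mean as covariate the 5 became 1 (2.27%), against 6.48% of all genes. That mean was itself lower after CM-695 (8.33 against 8.65), so the covariate can take up part of any group difference. The difference was below 0 in 27 of 44 collagen genes (61.4%) and in 44.7% of all genes. The median difference was -0.08 on the log2 scale over the family and 0.02 over all genes. By class the median was -0.08 for the fibrillar, -0.18 for the basement membrane and -0.01 for the other collagens.

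**Figure D1:**
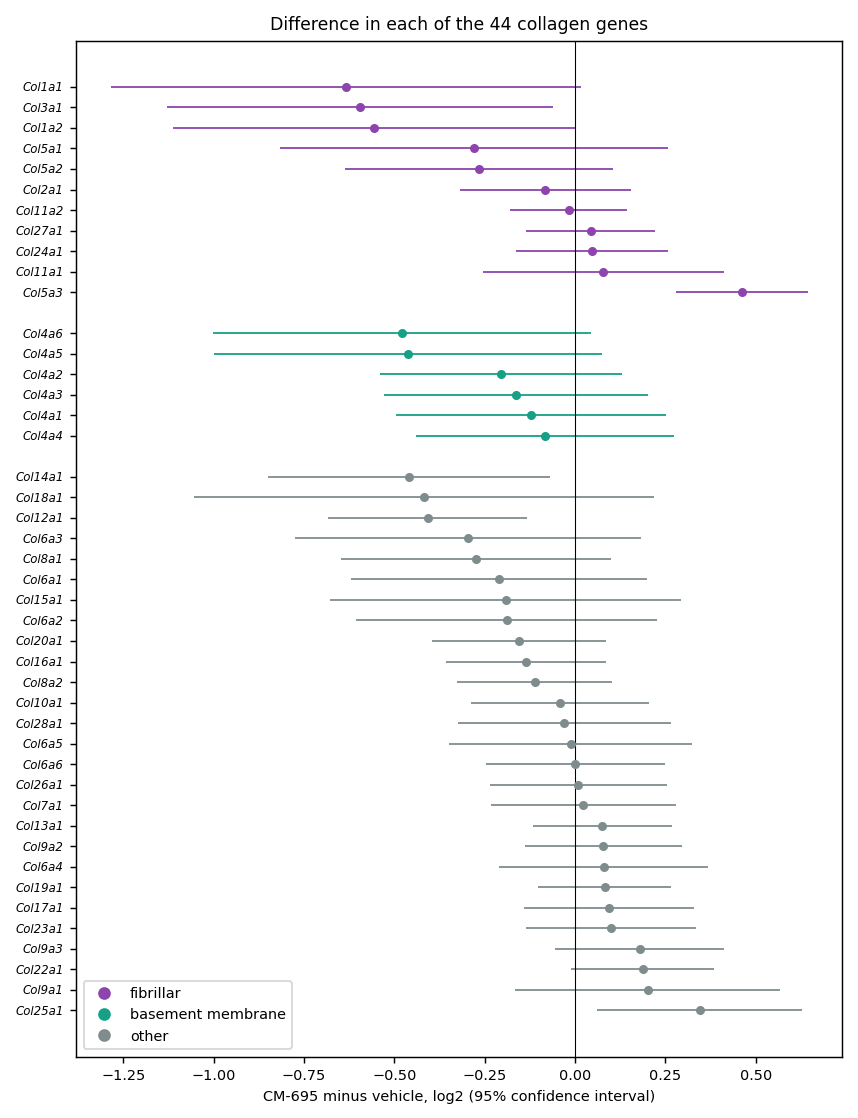
Each point is the difference CM-695 minus vehicle in log2 RMA signal for a collagen gene, with its 95% confidence interval from limma (6 mice per group), grouped by class and sorted within it. The interval of Col5a3 lies to the right of 0 (0.28 to 0.64), and all 6 basement membrane genes lie to the left of it with intervals that include 0.

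Col5a3 encodes the third chain of type V collagen, a minor fibrillar type that joins type I fibrils and limits their diameter. In mice this chain is known from fat, skeletal muscle and pancreatic islets. Its values were 6.06 at the lowest, 6.22 at the median and 6.40 at the highest after CM-695, against 5.62, 5.75 and 5.86 after vehicle. The 6 treated mice lay above all 6 vehicle mice, and Col5a3 was the only member whose groups did not overlap; 0.442% of all genes had every treated mouse above every vehicle mouse, and 1.08% were separated in either direction. The mean was 6.21 ± 0.13 in treated aortas and 5.75 ± 0.084 in vehicle aortas (SD, n = 6 each). The difference of 0.46 (SE 0.085, limma adjusted p = 0.0569) corresponds to 1.38-fold. The difference thus exceeded the spread within either group without passing the threshold over all probe sets. Without any 1 mouse it stayed between 0.42 and 0.49, and the adjusted p ran from 0.0438, without CM-695 mouse 2, to 0.148. With the smooth muscle, fibroblast or cardiac marker mean as covariate it was 0.44, 0.43 and 0.44, with adjusted p of 0.0489, 0.389 and 0.434. Adipocyte markers, 5 of 7 of which were above 0, had a median difference of 0.08, and their mean per mouse ran from 9.61 to 10.59 after CM-695 and from 9.91 to 10.33 after vehicle. CM-695 mouse 2, lowest of all mice in this mean at 9.61, was the lowest treated mouse for Col5a3 at 6.06, yet above every vehicle mouse. Vehicle mouse 5 had a mean of 10.22 and the lowest Col5a3 value, 5.62. The part of fat in the result was not tested.

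The other chains of type V did not share this difference in value. Col5a1, which encodes the chain present in nearly all type V trimers, measured 6.93, 7.57 and 8.38 after CM-695 (lowest, median, highest) and 7.26, 7.78 and 8.51 after vehicle, so the groups overlapped widely. Its difference was -0.28 (SE 0.25, limma adjusted p = 0.775). Col5a2, the partner chain of the common type V trimer, differed by -0.27 (SE 0.17, adjusted p = 0.678). The 95% confidence intervals, -0.82 to 0.26 for Col5a1 and -0.64 to 0.10 for Col5a2, lie below the whole interval of Col5a3 (0.28 to 0.64); the difference between the genes was not tested.

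The sequences before the start sites of Col5a3 and of the strong fibrillar genes Col1a2 and Col3a1 are shown because Col5a3 had the largest difference above 0 and the other genes had some of the largest below 0. Each is the 250 bases before the RefSeq start on the strand of the gene (GRCm38.p6), at chr9:20815068-20815317 on the minus strand for Col5a3, chr6:4505368-4505617 on the plus strand for Col1a2 and chr1:45311288-45311537 on the plus strand for Col3a1. Capitals mark the letters CCAAT, or ATTGG on the other strand, the box bound by the factor NF-Y.
Col5a3: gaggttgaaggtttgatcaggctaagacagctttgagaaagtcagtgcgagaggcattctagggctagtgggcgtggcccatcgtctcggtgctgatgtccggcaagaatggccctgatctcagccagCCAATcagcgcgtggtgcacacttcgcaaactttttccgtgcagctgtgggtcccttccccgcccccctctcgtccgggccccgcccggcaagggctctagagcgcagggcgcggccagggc
Col1a2: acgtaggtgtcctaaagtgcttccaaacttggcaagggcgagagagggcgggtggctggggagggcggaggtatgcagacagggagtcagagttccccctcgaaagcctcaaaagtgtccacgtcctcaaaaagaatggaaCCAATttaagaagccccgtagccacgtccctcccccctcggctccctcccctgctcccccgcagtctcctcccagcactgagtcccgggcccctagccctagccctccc
Col3a1: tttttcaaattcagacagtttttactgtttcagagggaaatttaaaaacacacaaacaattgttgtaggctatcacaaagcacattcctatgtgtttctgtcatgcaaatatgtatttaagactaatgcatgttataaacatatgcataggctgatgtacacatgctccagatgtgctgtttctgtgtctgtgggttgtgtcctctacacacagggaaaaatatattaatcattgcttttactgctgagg

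Col5a3 and Col1a2 each held 1 CCAAT, its first base 122 and 109 bases before the start, in windows of 62.8% and 62% G and C. The Col3a1 window held 0, with 35.2% G and C and 1 TATAAA. RefSeq windows were found for 35 of the 44 collagen genes. These genes had 38 windows. Searched on both strands, CCAAT lay in 33.8% of all 32851 windows and in 34.2% of the 38, from 13 of the 35 genes. TATAAA lay in 12.4% of all windows and in 13.2% of the 38, from 5 of the 35 genes. GAANNTTC, the core of the heat shock element, lay in 6.69% of all windows and in 2.63% of the 38, from 1 gene, Col4a5. CACGTG, the E-box of clock activators, lay in 6.02% of all windows and in 0 of the 38. These letters are a description and say nothing of binding.

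The genes of the main fibrils, types I and III, had the largest negative differences of the family. Col1a1, which encodes the major chain of type I collagen, measured 9.06 at the lowest, 9.67 at the median and 10.77 at the highest after CM-695, against 9.37, 10.35 and 11.02 after vehicle. CM-695 mouse 2 was the highest treated mouse at 10.77, the others lying at 9.73 or below. The groups overlapped with or without it, since only mouse 3 lay below the lowest vehicle mouse. The difference was -0.63 (SE 0.30, limma adjusted p = 0.557), or 0.645-fold, with a 95% confidence interval from -1.28 to 0.02. Without CM-695 mouse 2 it was -0.84, the most negative value with any 1 mouse left out.

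Col1a2, the partner chain of type I, measured 8.68, 9.34 and 10.18 after CM-695 and 9.26, 9.83 and 10.55 after vehicle (lowest, median, highest). Its difference was -0.56 (SE 0.26, adjusted p = 0.548), and a second Col1a2 probe set gave -0.54 (SE 0.28, adjusted p = 0.586). The second probe sets of Col6a1 and Col5a1 gave -0.20 and -0.05, against -0.21 and -0.28 for those used here. Col3a1, the single chain of type III collagen, whose human counterpart is mutated in vascular Ehlers-Danlos syndrome, measured 8.95, 9.69 and 10.10 after CM-695 and 9.49, 10.07 and 10.86 after vehicle. Its difference was -0.59 (SE 0.25, unadjusted p = 0.0318, limma adjusted p = 0.497). In each of these genes vehicle mice 3 and 4 stood highest and CM-695 mouse 3 lowest, and the groups overlapped. With the smooth muscle, fibroblast or cardiac marker mean as covariate the Col1a1 difference was -0.43, -0.29 and -1.08.

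The remaining fibrillar genes, Col2a1, Col11a1 and Col11a2 of cartilage and the minor chains Col24a1 and Col27a1, had weaker signals than Col1a1, Col1a2 and Col3a1. Their differences ran from -0.08 to 0.08.

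**Figure D2:**
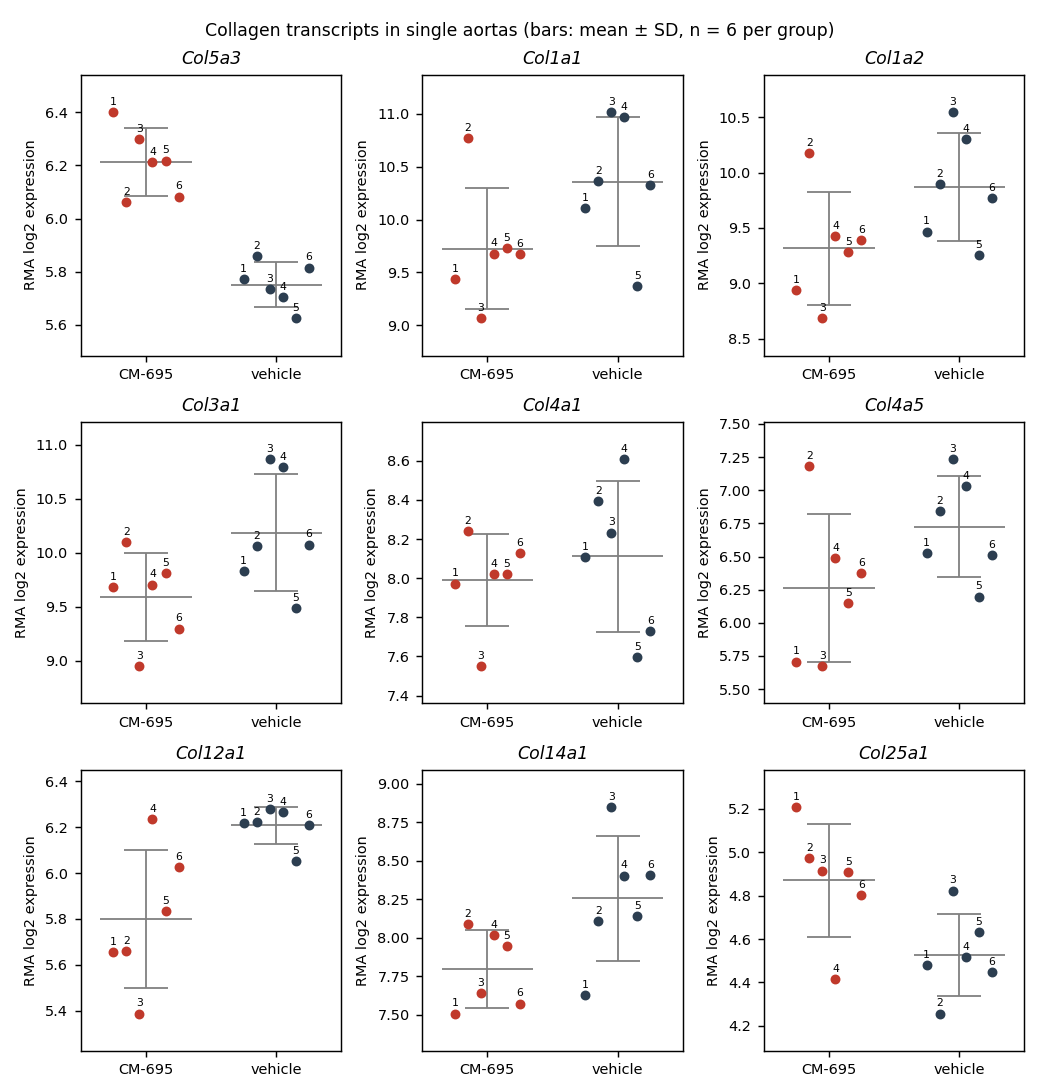
RMA log2 signal of 9 collagen genes in single aortas, CM-695 (red) and vehicle (dark), with mouse numbers, mean and SD (n = 6 per group); each panel has its own vertical range. For Col5a3 every treated mouse (6.06 to 6.40) lies above every vehicle mouse (5.62 to 5.86), while CM-695 mouse 2 is the highest treated mouse for Col1a1, Col1a2 and Col4a5.

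All 6 type IV genes of the basement membrane lay below 0, from -0.48 to -0.08, and none had an unadjusted p under 0.05. Col4a1 and Col4a2, whose chains form the trimer of nearly every basement membrane, measured 7.55 to 8.24 and 7.44 to 7.89 after CM-695 and 7.60 to 8.61 and 7.41 to 8.25 after vehicle. Their differences were -0.12 (SE 0.17, limma adjusted p = 0.872) and -0.21 (SE 0.16, adjusted p = 0.732), and the groups overlapped almost entirely.

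Col4a5 and Col4a6 encode chains that share a trimer in the basement membrane of smooth muscle. Col4a6 measured 5.54 at the lowest, 6.04 at the median and 6.92 at the highest after CM-695, against 5.95, 6.57 and 6.95 after vehicle. The difference was -0.48 (SE 0.24, adjusted p = 0.581) for Col4a6 and -0.46 (SE 0.25, adjusted p = 0.607) for Col4a5. In both genes 3 treated mice had less signal than any vehicle mouse, and CM-695 mouse 2 lay near the top of the vehicle range. Without that mouse both differences were -0.65. The smooth muscle markers moved with the same mice: their mean was 10.31 in CM-695 mouse 2 and 8.32 to 9.34 in the other treated mice, against 8.79 to 9.72 after vehicle, and their median difference was -0.27, with 10 of 11 below 0. With the smooth muscle mean as covariate the median of the basement membrane genes was -0.13. Col4a3 and Col4a4, chains best known from the kidney glomerulus, differed by -0.16 (SE 0.17) and -0.08 (SE 0.17).

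Among the fibril-associated collagens, which lie on the surface of fibrils and link them to other matrix, Col12a1 and Col14a1 were lower. Col12a1 measured 5.39, 5.75 and 6.24 after CM-695 (lowest, median, highest) and 6.05, 6.22 and 6.28 after vehicle. All treated mice but mouse 4 lay below the lowest vehicle mouse, and the vehicle values were tight. The difference was -0.41 (SE 0.13, unadjusted p = 0.00698, limma adjusted p = 0.330). Col14a1, found in the adventitia and in skin and tendon, measured 7.51, 7.79 and 8.09 after CM-695 and 7.63, 8.27 and 8.85 after vehicle, a difference of -0.46 (SE 0.18, unadjusted p = 0.0244, adjusted p = 0.461). The mean of the fibroblast markers per mouse ran from 8.18 to 8.52 after CM-695 and from 8.18 to 8.87 after vehicle. With this mean as covariate Col14a1 had a difference of 0.0091. The covariate was itself lower after CM-695 (8.33 against 8.65 on average), so it can take up part of any group difference. Whether fibroblast content accounts for the Col14a1 value was not tested. The other 7 genes of this class ran from -0.16 for Col20a1 to 0.20 for Col9a1.

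Type VI collagen forms beaded microfilaments around cells, and its main genes, Col6a1, Col6a2 and Col6a3, had differences of -0.21 (SE 0.19), -0.19 (SE 0.19) and -0.30 (SE 0.22), with limma adjusted p of 0.728 to 0.810. Col6a3 measured 7.27, 7.49 and 8.29 after CM-695 and 7.21, 7.84 and 8.53 after vehicle. For Col6a1 and Col6a2 CM-695 mouse 2 was the highest of all 12 mice, at 9.34 and 8.19. The genes of its further chains, Col6a4, Col6a5 and Col6a6, differed by -0.01 to 0.08. Col15a1 and Col18a1 encode the multiplexins, collagens of the basement membrane zone that carry sugar chains, of which type XVIII releases endostatin. They differed by -0.19 (SE 0.23) and -0.42 (SE 0.29, 95% confidence interval -1.05 to 0.22). Col18a1 ran from 6.65 to 8.25 after CM-695 and from 6.95 to 8.19 after vehicle, the 8.25 again being mouse 2. Col8a1, a short-chain collagen made by vascular smooth muscle and endothelium, measured 5.75, 5.95 and 6.24 after CM-695 and 5.82, 6.22 and 6.89 after vehicle, a difference of -0.27 (SE 0.17, adjusted p = 0.670). For Col8a1, 3 mice of each group lay in the range that both groups shared.

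The 4 transmembrane collagens were all above 0, by 0.08 to 0.34, as were 12267 of all 22180 genes. Apart from Col25a1 they differed by at most 0.10, with limma unadjusted p of 0.38 to 0.41. Col25a1, a neuronal membrane collagen needed in mice for the innervation of muscle, measured 4.42, 4.91 and 5.21 after CM-695 and 4.26, 4.50 and 4.82 after vehicle. All treated mice but mice 4 and 6 exceeded the highest vehicle mouse. The difference was 0.34 (SE 0.13, unadjusted p = 0.0207, limma adjusted p = 0.445). The signal lies near the array median, and without detection calls a weak transcript cannot be told from an absent one. Over the family 32 genes exceeded the array median on all 12 arrays, 9 on some and 3 (Col10a1, Col11a1 and Col28a1) on none.

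The negative differences went with strong signals. Of the 22 members with the higher mean signal 17 were below 0 (77.3%), with a median of -0.27; of 8016 genes with a mean at least as high as the dimmest of these, 49.6% were below 0 and the median was 0.00. The 22 members with the lower mean signal had 10 below 0 and a median of 0.01. Apart from Col5a3, the 4 positive values among the stronger 22 were at most 0.10. The stronger 22 also varied more between mice of a group, with a median SD of 0.348, against 0.184 for the weaker 22. Signals of different probe sets do not rank transcript amounts, and the 22 are not independent, since they varied together across mice.

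**Figure D3:**
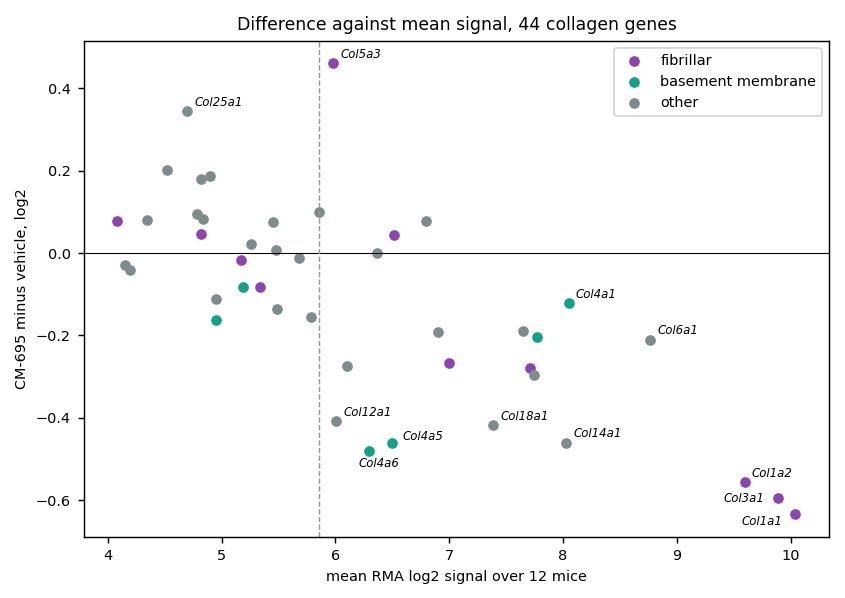
Difference CM-695 minus vehicle (log2, vertical) against the mean RMA log2 signal over 12 mice (horizontal) for the 44 collagen genes, coloured by class; the dashed line parts the 22 stronger from the 22 weaker signals. Col1a1, Col3a1 and Col1a2 lie lowest at the right, and Col5a3 stands alone at 0.46.

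This joint variation followed single mice. Among the 22 stronger members CM-695 mouse 2 was the highest treated mouse for 18 and mouse 3 the lowest for 11, and among vehicle mice mouse 3 was highest for 10, mouse 4 for 7 and mouse 5 lowest for 15. The median deviation of these genes from their mean over 12 mice was 0.32 in CM-695 mouse 2 and -0.44 to -0.02 in the other 5 treated mice. After vehicle it was 0.52 and 0.46 in mice 4 and 3, 0.22 in mouse 2, and -0.35 to -0.02 in the other 3. Without CM-695 mouse 2, 11 collagen genes (25%) had an unadjusted p under 0.05 in place of 5, and the share of all genes was 12.1% in place of 9.1%. Without both CM-695 mice 2 and 3, left out after the values were seen, 8 collagen genes (18.2%) and 9.11% of all genes did. Whether the collagen share moved more than that of other genes was not tested.

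**Figure D4:**
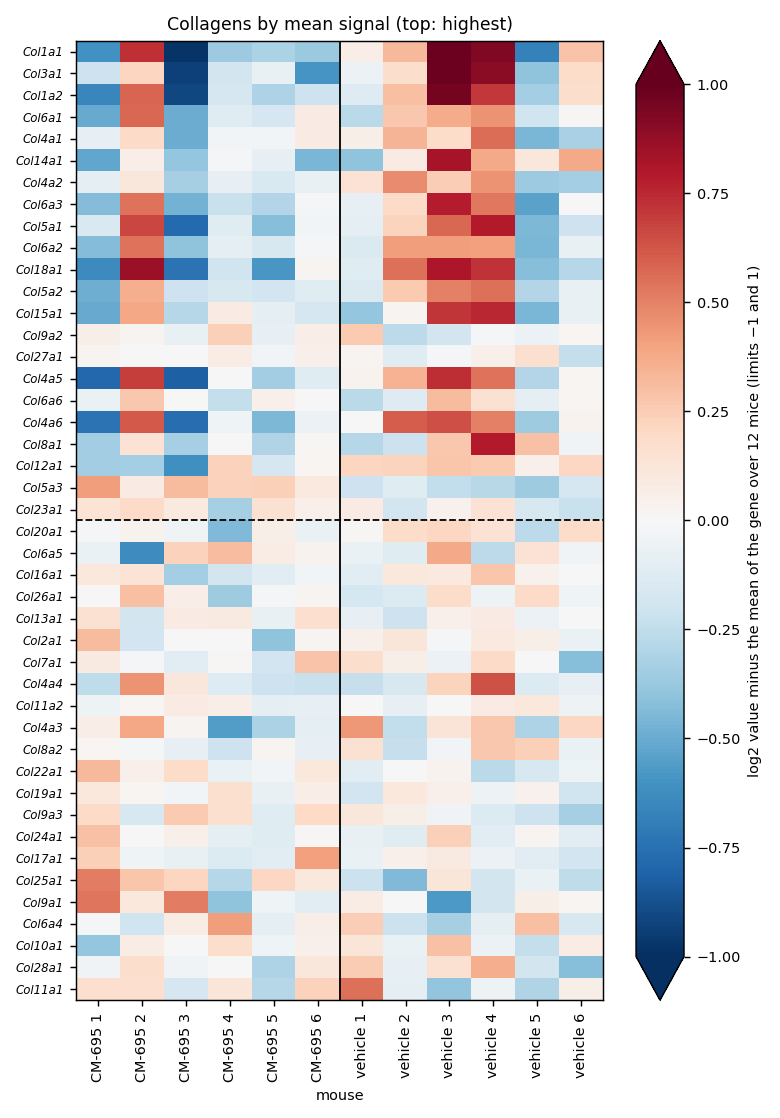
Log2 signal of each collagen gene minus its mean over 12 mice, with genes from the strongest mean signal (top) to the weakest, CM-695 mice at the left and vehicle mice at the right of the solid line; colours saturate at -1 and 1. Above the dashed line are the 22 stronger genes. There CM-695 mouse 2 and vehicle mice 2, 3 and 4 are mostly red. CM-695 mice 1, 3, 4 and 5 and vehicle mouse 5 are mostly blue.

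Within the groups, 5 of 9 pairs of chains that build the same collagen varied closely together, and the other 4 did not pass the test. Deviations from the group means were correlated over 12 mice, with permutation p-values from 100000 resamples adjusted over the 9 pairs. For Col1a1 and Col1a2 Pearson's r was 0.96 (adjusted p = 4.5e-05) and Spearman's rho 0.88 (adjusted p = 0.00101), and r was 0.96 without the 2 mice farthest from the median. The raw p for Pearson's r, 1e-05, is the smallest that these resamples can give.

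Col4a5 and Col4a6 reached r = 0.98 (permutation adjusted p = 4.5e-05) and rho = 0.94 (adjusted p = 0.00036), and 0.96 for r without 2 mice. Col4a1 and Col4a2 reached r = 0.95 (permutation adjusted p = 6e-05) and rho = 0.92 (adjusted p = 0.00063), and 0.95 for r without 2 mice. These are head-to-head gene pairs: the RefSeq starts of Col4a1 and Col4a2 overlap by 22 bases, and those of Col4a6 and Col4a5 lie 1343 bases apart on opposite strands. Col6a1 and Col6a2 had r = 0.94 (permutation adjusted p = 6.75e-05), rho = 0.91 (adjusted p = 0.00066) and r = 0.90 without 2 mice. Col5a1 and Col5a2 had r = 0.85 (permutation adjusted p = 0.00119), rho = 0.85 (adjusted p = 0.00193) and r = 0.69 without 2 mice.

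The pairs Col4a3 and Col4a4 (r = 0.47, rho = 0.19), Col8a1 and Col8a2 (r = 0.42, rho = 0.29), Col9a1 and Col9a2 (r = -0.07, rho = 0.02) and Col11a1 and Col11a2 (r = -0.16, rho = -0.18) did not pass, with permutation adjusted p of 0.186 to 0.840 for r and 0.532 to 0.956 for rho. Each holds at least 1 gene with a weak signal. As a description, the median r over all 231 pairs of the 22 stronger members was 0.57 and over the 231 pairs of the weaker 22 it was 0.12, so strong collagens that share no trimer also tended to vary together.

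**Figure D5:**
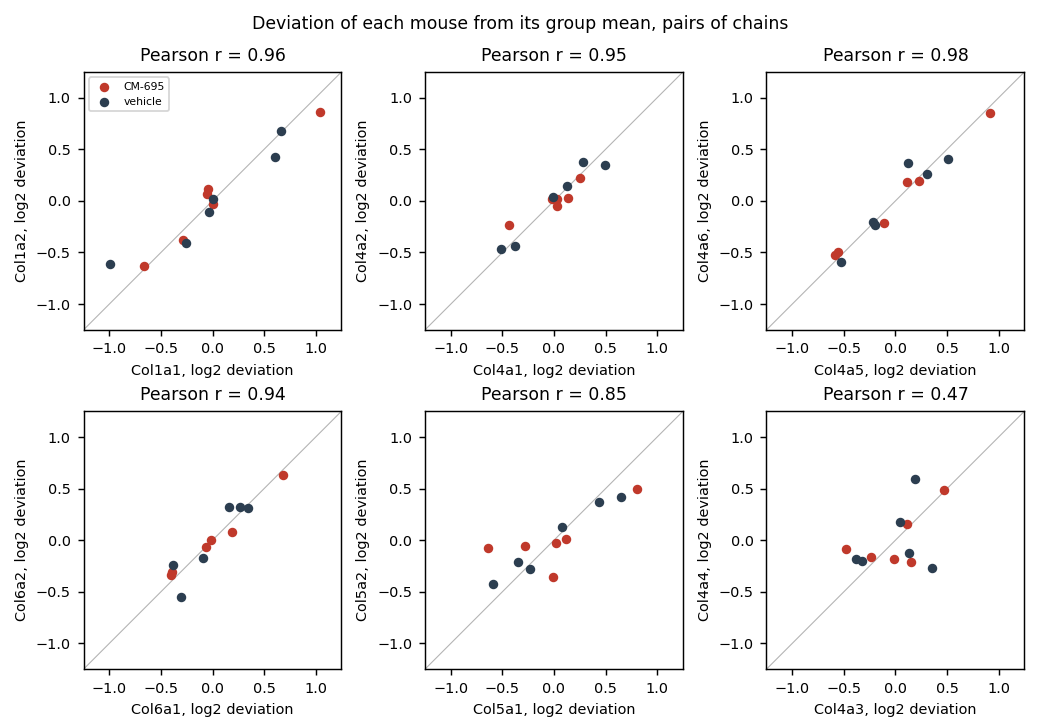
Each point is a mouse (CM-695 red, vehicle dark), placed by the deviation of its log2 signal from the group mean for both chains of a collagen; the grey line marks equal deviations. Points of Col1a1 and Col1a2, Col4a1 and Col4a2, Col4a5 and Col4a6, and Col6a1 and Col6a2 follow the line (r = 0.94 to 0.98), those of Col4a3 and Col4a4 do not (r = 0.47).

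Genes that make collagen into fibres gave values on both sides of 0, and none passed the limma threshold. For the counts below 0 in this and the following lists, the share of all genes was 44.7%. Of 19 measured genes for folding and modification, 16 were below 0, with a median of -0.15, and 1 in each direction had an unadjusted p under 0.05, against 4.14% of all genes lower and 4.96% higher. P4ha1, a catalytic subunit of prolyl 4-hydroxylase, the enzyme that stabilises the helix, differed by 0.29 (SE 0.13, adjusted p = 0.524). The genes of its other catalytic subunits, P4ha2 and P4ha3, differed by -0.24 (SE 0.19) and -0.14 (SE 0.13). For P3h1, a prolyl 3-hydroxylase, the difference was -0.34 (SE 0.14, adjusted p = 0.493). For Plod2, which hydroxylates lysines for cross-links, it was -0.51 (SE 0.25, adjusted p = 0.572). Serpinh1 encodes HSP47, the collagen chaperone and a heat shock protein; it averaged 7.76 ± 0.20 in treated and 7.61 ± 0.35 in vehicle aortas (SD, n = 6 each). Its difference of 0.15 (SE 0.16, adjusted p = 0.821) had a 95% confidence interval from -0.19 to 0.48.

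Of 12 genes for processing and cross-linking, 8 were below 0 (median -0.14), with 3 lower and 0 higher at an unadjusted p under 0.05, against the same 4.14% and 4.96% of all genes. Bmp1, the proteinase that removes the carboxyl propeptide, differed by -0.47 (SE 0.16, limma adjusted p = 0.355), its enhancer gene Pcolce by -0.31 (SE 0.12, adjusted p = 0.443), and the lysyl oxidase relative gene Loxl3 by -0.72 (SE 0.32, adjusted p = 0.523). Lox itself, which cross-links collagen and elastin, differed by 0.13 (SE 0.30), a value whose sign changed without CM-695 mouse 2 (-0.080) or vehicle mouse 5 (-0.01).

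Of 10 proteoglycan genes that bind fibrils, 2 of them also fibroblast markers here (Dcn and Lum), 9 were below 0, with a median of -0.17. Podn, which encodes podocan, measured 7.18, 7.45 and 7.58 after CM-695 and 7.62, 7.94 and 8.08 after vehicle, with no overlap, a difference of -0.46 (SE 0.10, limma adjusted p = 0.137); 0.636% of all genes had every treated mouse below every vehicle mouse. Aspn, asporin, differed by -0.64 (SE 0.21, adjusted p = 0.349) and Lum, lumican, by -0.38 (SE 0.18, adjusted p = 0.551).

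Of 9 collagen receptor genes 8 were below 0, with a median of -0.14. The exception was Gp6, the collagen receptor of platelets, with 3.98, 4.37 and 4.50 after CM-695 and 3.51, 3.92 and 4.18 after vehicle and a difference of 0.41 (SE 0.14, adjusted p = 0.360), all below the array median. Mrc2, which takes up collagen fragments, and Ddr2, a receptor kinase for fibrillar collagen, differed by -0.21 (SE 0.13) and -0.32 (SE 0.26).

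In the TGF-beta pathway, a major inducer of collagen transcription, 14 of 17 genes were below 0 with a median of -0.08, against 44.7% of all genes below 0. The pathway's co-receptor gene Tgfbr3 measured 7.28, 7.60 and 7.70 after CM-695 and 7.93, 7.94 and 8.28 after vehicle, again with no overlap. Of all genes, 0.636% had every treated mouse below every vehicle mouse. The Tgfbr3 difference was -0.46 (SE 0.097, limma adjusted p = 0.109). Of the signalling receptor genes, Tgfbr1 had a difference of -0.40 (SE 0.19, adjusted p = 0.554), while that of Tgfbr2 was 0.24 (SE 0.11, adjusted p = 0.525).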

How the data were processed

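The values deposited by the authors are on the log2 scale and cover 41345 probe sets in 12 mice. RMA made them, per the submitters' processing notes; its version is not given in the sources used here. By platform annotation 23521 probe sets have 1 symbol; of these 23328 matched RefSeq by gene ID with 0 changed symbols.

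CM-695 minus vehicle was fitted for every probe set with limma 3.58.1 in R 4.3.3 (lmFit, eBayes, two-sided, Benjamini-Hochberg over all probe sets, threshold 0.05), after a check on simulated data. The check recovered 34% of simulated 1.5-fold changes and 82% of 2-fold changes, so a gene short of the threshold may still differ. These rates are for randomly drawn probe sets with independent noise. The 22 stronger collagens had a median SD of 0.348 within groups, against 0.211 for all genes, and varied together, so the rates may overstate recovery for them. Lists are described by counts and medians, with no test. The number of mice limits the precision. Members and lists were chosen with earlier results of these data known. Named are the 15 collagens of textbook vessel wall, members with separated groups, the 2 smallest p per class, the 3 smallest p per further list, Serpinh1 and Lox. P4ha2 and P4ha3 are given beside P4ha1. Labels number the mice 1 to 6 in both groups, and the fit has no block. Alternatives were the replicate block, a filter on dim probe sets, 2 further normalizations, array weights, another variance prior, other uses of probe sets, 3 marker covariates and leaving out mice. Correlations used Python 3.11.15.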

Additional observations from a re-analysis of the deposited data

Results flagged for a closer look

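Within groups of 6 mice, 4 values stood apart from the other 5 by more than Dixon's 95% limit, among 72 groups of values examined. Chance alone gives about 1 in 20 groups. Col12a1 was lowest in vehicle mouse 5 at 6.05, the other vehicle mice lying between 6.21 and 6.28. CM-695 mouse 2 was highest for Bmp1 at 7.83 (other treated mice 6.93 to 7.23) and for Ddr2 at 9.58 (7.97 to 8.41). Vehicle mouse 2 was highest for Tgfbr3 at 8.28, with the lowest vehicle mouse at 7.93.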

How the results depend on the processing

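The count of collagen genes past the adjusted threshold was 0 and became 1, Col5a3 each time, with weights for array quality, the robust and trended variance prior, the smooth muscle mean as covariate and the filter on dim probe sets (limma adjusted p 0.0407, 0.0419, 0.0489 and 0.0221); with 1 mouse left out it ran from 0 to 1. The labels do not say whether mice of the same number in both groups were paired. Their deviations correlated at -0.10 to 0.10, and 1 of 6 numbers was its own best match, which does not settle the matter. With the replicate block no collagen passed, 5 had an unadjusted p under 0.05, the family median stayed at -0.08 and Col5a3 had adjusted p = 0.240. The count at an unadjusted p under 0.05, 5, became 9 with array weights, 9 with the smooth muscle, 8 with the cardiac and 1 with the fibroblast covariate. The share of all genes was 9.1%, and 10.6%, 11.01%, 7.03% and 6.48% under these settings. The collagen count was 8 (18.2%) without CM-695 mice 2 and 3, against 9.11% of all genes. It was 14 (31.8%) without CM-695 mouse 2 and vehicle mouse 1, against 13.6% of all genes. Both settings were chosen after seeing the data. With 1 mouse left out the collagen count ran from 3 to 11: 3 when CM-695 mouse 1 or 6 was dropped, 11 without CM-695 mouse 2 and 9 without vehicle mouse 5. The share of all genes was 7.86% and 8.50% without CM-695 mouse 1 and 6. It was 12.1% without CM-695 mouse 2 and 9.00% without vehicle mouse 5. The class medians moved by less than the spread between mice under all 25 alternatives; that of the other collagens lay near 0 and took both signs. With the fibroblast covariate the differences changed sign for Col6a1 (0.033), Col14a1 (0.0091), Col15a1 (0.19), Ddr2 (0.020) and Lum (0.029), Lum being itself in that covariate. Lox was -0.30 with the cardiac covariate and -0.080 to 0.29 with 1 mouse left out. Since the fibroblast and cardiac means themselves differed between the groups, these covariates can take up part of a group difference. The causes were not tested. Of 475 values of the 19 named collagens, 467 kept their direction and side of the threshold. Signals near the array median, and 6 mice per group, limit what the weaker members can show.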
